A study of Mus musculus with 15 samples.

Results

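The Zfp genes with a number in their symbol, on mouse chromosomes 2, 4, 7, 8, 10, 13 and 17, were examined in embryonic stem cells. Members were taken by symbol alone from the deposited gene table, leaving out Zfp42 and Zfp352, and the rule used no measured value. They came to 210 genes of the 22035 named in that table. A gene was called clustered when another such gene lay within 100 kb of it and lone otherwise, which gave 129 clustered and 81 lone genes. Chromosome 7 held 64 clustered and 18 lone genes, chromosome 17 held 28 and 11, chromosome 13 held 22 and 9, chromosome 8 held 9 and 16, and chromosome 2 held 6 and 10. Chromosomes 4 and 10 held 13 and 4 lone genes and no clustered one. The distance threshold separated Zfp738, whose neighbour lay 96.2 kb away, from Zfp72 and Zfp825, which lay 103.5 kb apart. Genes of zinc finger type with other kinds of name were not counted as neighbours, so a lone gene here may have an unnamed relative beside it.

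Most genes of this name encode proteins with arrays of C2H2 zinc fingers, short folds that hold zinc and read DNA sequence. Many of them, the KRAB zinc finger proteins, recruit the co-repressor Trim28, which brings the methyltransferase Setdb1 to the bound site, where histone H3 is trimethylated at lysine 9 (H3K9me3). The genes multiplied by tandem duplication and often lie in rows, and the long exon at the 3′ end that encodes the finger array is known in many cell types to carry H3K9me3 itself. The symbol does not say which member has a KRAB domain, and members such as Zfp161, a BTB zinc finger protein now called Zbtb14, belong to other families.

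All 15 libraries came from 1 male wild-type cell line, TT2, derived from a C57BL/6 x CBA blastocyst, with no treatment and no second genotype. They were made by native ChIP-seq, which precipitates nucleosomes without fixation, from sorted cells: H3K9me3 from 1000 cells in 3 libraries (a, b, c) and from 10000, 100000 and 1000000 cells in 1 library each, H3K27me3 from 1000, 10000 and 100000 cells, H3K4me3 from 5000, 10000 and 100000 cells, and panH3, which takes all histone H3, modified or not, from 1000 cells in 2 libraries (a, b). RNA from 1000 cells, depleted of ribosomal RNA, gave 1 library. Nothing in the labels said that libraries of 1 kind came from separate cultures, so p-values measured the spread between libraries, which may be technical. Values were deposited as RPKM (reads scaled to window length and library depth) for randomly placed 2 kb bins, for 1 kb windows at start sites and for genes. Estimated depth was 13.4 to 45.5 M reads (M for 1000000) for H3K9me3, 42.03 and 42.15 M reads for panH3 and 13.03 to 19.7 M reads for H3K27me3. For H3K4me3 it was 1.86 M reads at 5000 cells, 1.07 M reads at 10000 cells and 16.6 M reads at 100000 cells. The depths of panH3 and of H3K9me3 at 1000000 cells are weakly determined, because 1 read there is worth little more than the last deposited digit. All 8 stem cell markers listed were present at 31.6 to 221.8 RPKM of RNA, against a median of 0.08 RPKM over 8 fibroblast or feeder genes, of which Col3a1 and Postn were listed at 0 and Vim and Fn1 reached 13.5 and 38.5 RPKM.

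Start-site sequence is shown for 6 members at or near the ends of the measured ranges described below: Zfp553 and Zfp217 for H3K4me3, Zfp579 for H3K27me3, Zfp57 for RNA, Zfp758 for H3K9me3 in a clustered gene, and Zfp781 for a start site listed at 0 for H3K4me3. Each line gives the 200 bases before the first start that RefSeq lists on GRCm38.p6, from 5′ to 3′ in the direction of transcription, with CpG dinucleotides in capitals.
Zfp553 (chr7:127232861-127233060, + strand): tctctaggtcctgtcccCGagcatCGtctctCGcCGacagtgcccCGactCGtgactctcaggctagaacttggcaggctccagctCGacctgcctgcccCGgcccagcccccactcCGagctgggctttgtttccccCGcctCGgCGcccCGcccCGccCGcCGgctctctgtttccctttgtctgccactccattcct
Zfp217 (chr2:170142676-170142875, - strand): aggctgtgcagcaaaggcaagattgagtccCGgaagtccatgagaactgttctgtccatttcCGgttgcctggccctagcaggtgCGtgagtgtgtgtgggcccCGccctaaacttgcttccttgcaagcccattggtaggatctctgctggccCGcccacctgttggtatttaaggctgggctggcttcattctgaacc
Zfp579 (chr7:4996102-4996301, - strand): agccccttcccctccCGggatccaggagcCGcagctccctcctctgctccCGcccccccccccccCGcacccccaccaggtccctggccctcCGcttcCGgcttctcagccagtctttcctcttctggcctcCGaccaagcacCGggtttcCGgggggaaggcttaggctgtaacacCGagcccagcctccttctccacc
Zfp57 (chr17:37003466-37003665, + strand): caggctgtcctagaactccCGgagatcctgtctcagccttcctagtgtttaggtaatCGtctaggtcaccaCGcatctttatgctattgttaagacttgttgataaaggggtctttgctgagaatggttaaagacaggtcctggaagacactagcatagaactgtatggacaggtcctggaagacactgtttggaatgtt
Zfp758 (chr17:22361263-22361462, + strand): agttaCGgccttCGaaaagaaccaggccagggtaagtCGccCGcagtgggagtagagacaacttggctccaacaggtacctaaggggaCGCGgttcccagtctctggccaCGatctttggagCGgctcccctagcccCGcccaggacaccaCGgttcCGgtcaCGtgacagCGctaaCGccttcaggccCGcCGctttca
Zfp781 (chr10:81930513-81930712, - strand): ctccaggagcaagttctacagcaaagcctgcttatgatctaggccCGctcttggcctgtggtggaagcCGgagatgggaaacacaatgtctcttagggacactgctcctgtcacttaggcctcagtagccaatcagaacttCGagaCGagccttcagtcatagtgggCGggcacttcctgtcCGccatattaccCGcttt
The lines of Zfp553 and Zfp758 held 16 CpG dinucleotides each, that of Zfp579 held 10, that of Zfp781 held 7, that of Zfp217 held 5 and that of Zfp57 held 3. RefSeq listed 3 starts for Zfp57 and 2 for Zfp217, and the first was taken.

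In the bins touching members, H3K9me3 was called below panH3 in most cases, and the bins above panH3 were found more often among clustered genes. A bin counted when any part of it touched a gene, so some bins lay mostly outside. For example, Zfp759 ends at chr13:67242720 and its bin spans chr13:67242001-67244000. Of the 98085 bins, 203 touched a member and 202 had reads in a compared library, 85 in clustered and 117 in lone genes. At 1000 cells H3K9me3 exceeded panH3 in 17 of 85 clustered bins (20.0%) and in 6 of 117 lone bins (5.13%), at a Benjamini-Hochberg adjusted p under 0.05 in limma over all bins. Of all 93575 bins tested, 15.2% were called above panH3, and of the 35764 bins touching any gene, 7.19% were. The clustered share was near that of all bins and above that of bins touching a gene, and the lone share was near that of bins touching a gene. H3K9me3 was called below panH3 in 43 clustered bins (50.6%) and 76 lone bins (65.0%), against 24.7% of all bins and 45.6% of bins touching a gene. Bins touching the Zfp genes outside the set gave 7 above and 84 below of 119. With each library centred on its median, clustered bins gave 21 above and 39 below and lone bins 8 and 69, against 21.7% above and 19.8% below of all bins. The difference between the classes was not tested, since genes are not replicates, and how reads that match several similar Zfp genes were counted is not given, so values of single genes in a run are uncertain.

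The levels behind these calls were 0.466, 0.394 and 0.386 RPKM of H3K9me3 in libraries a, b and c as means over the 85 clustered bins, against 0.478 and 0.497 RPKM of panH3. Over the 117 lone bins they were 0.261, 0.276 and 0.287 RPKM of H3K9me3, against 0.497 and 0.503 RPKM of panH3. Clustered genes averaged 0.415 ± 0.044 RPKM and lone genes 0.275 ± 0.013 RPKM of H3K9me3 (SD, n = 3 libraries each), while panH3 was 0.488 ± 0.013 and 0.50 ± 0.004 RPKM in the 2 classes (SD, n = 2). The lowest clustered library lay above the highest lone one, and the panH3 values of the classes lay close to each other. The same order held with more cells. Clustered and lone bins averaged 0.465 and 0.280 RPKM at 10000 cells, 0.491 and 0.304 RPKM at 100000 cells, and 0.440 and 0.356 RPKM at 1000000 cells. H3K27me3 did not share this order in every library: the clustered and lone means were 0.351 and 0.332 RPKM at 1000 cells, 0.260 and 0.322 RPKM at 10000 cells, and 0.246 and 0.300 RPKM at 100000 cells. The other genes on these chromosomes averaged 0.320 ± 0.004 RPKM of H3K9me3 over 13342 bins, which lay between the 2 classes. Most bins of either class held little of the mark. With each bin averaged over the 3 libraries first, the median was 0.300 RPKM for clustered and 0.203 RPKM for lone bins.

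**Figure D1:**
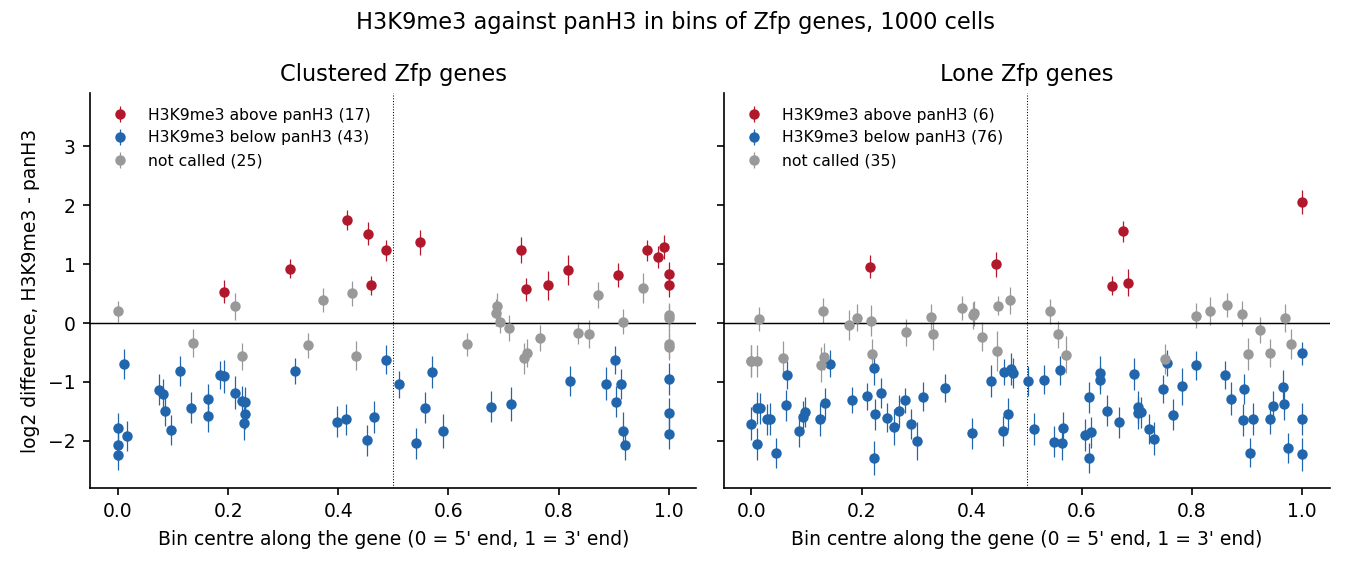
Log2 difference of H3K9me3 and panH3 at 1000 cells (vertical axis, on log2(RPKM + 0.1)) for each 2 kb bin against its place along the gene (horizontal axis, 0 at the 5′ end and 1 at the 3′ end), for clustered genes (left) and lone genes (right). Bars are standard errors from limma, colours give the call, and the 17 clustered and 6 lone bins above panH3 lie away from the 5′ end.

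The 23 bins above panH3 touched 21 members, 15 clustered and 6 lone. The highest touched the 3′ end of lone Zfp938 (chr10:81686001-81688000 on mm9), with 2.17, 1.53 and 1.27 RPKM of H3K9me3 against 0.39 and 0.25 RPKM of panH3. This gene, on the minus strand, ends at 81687600, so most of the bin lay past it. The log2 difference of this bin was 2.05 ± 0.20 (SE, adjusted p = 2.22e-08 in limma). The next was in clustered Zfp758 (chr17:22504001-22506000, in its 5′ part), with 1.74, 1.73 and 1.27 RPKM against 0.42 and 0.37 RPKM of panH3. Its log2 difference was 1.75 ± 0.18 (SE, adjusted p = 3.01e-08). In both bins every H3K9me3 library stood above every panH3 library. Lone Zfp808 had 1.97, 1.62 and 1.18 RPKM of H3K9me3 against 0.43 and 0.50 RPKM of panH3 in a bin that also touched a second gene (log2 difference 1.56 ± 0.18, adjusted p = 3.19e-07). Clustered Zfp934 held 2 such bins of 3, the higher with 0.97, 1.20 and 0.87 RPKM against 0.29 and 0.28 RPKM. Clustered Zfp943 followed with 1.91, 1.07 and 1.07 RPKM of H3K9me3 against 0.50 and 0.39 RPKM of panH3, where library a was well above the other two. Clustered Zfp13 had 2 bins above at its 3′ end, at log2 differences of 1.30 ± 0.20 and 0.81 ± 0.20, and 1 bin below. Zfp946, in the same run as Zfp758, averaged 0.872 ± 0.096 RPKM of H3K9me3 against 0.418 ± 0.039 RPKM of panH3 over its 2 bins. Lone Zfp933 on chromosome 4 and Zfp831 on chromosome 2 each had 1 bin above and none below, at 0.510 ± 0.118 RPKM against 0.360 ± 0.014 RPKM and 0.441 ± 0.091 RPKM against 0.385 ± 0.067 RPKM over their bins.

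At the other end, among genes with at least 2 tested bins, the bins of Zfp217, Zfp346, Zfp106 and Zfp821 were all called below panH3. Zfp217, whose human counterpart is an oncogene amplified in breast cancer, had 0.030, 0.085 and 0.080 RPKM of H3K9me3 against 0.535 and 0.655 RPKM of panH3 as means of 2 bins. Zfp346, a protein that binds double-stranded RNA, had 0.070, 0.073 and 0.050 RPKM against 0.587 and 0.497 RPKM over 3 bins. Zfp106, an RNA-binding protein needed by motor neurons and muscle, had 0.060, 0.060 and 0.073 RPKM against 0.543 and 0.460 RPKM over 3 bins. These 4 genes were lone. The clustered gene among the 6 of these genes with the lowest mean difference was Zfp87 on chromosome 13, with 0.10, 0.055 and 0.065 RPKM of H3K9me3 against 0.520 and 0.525 RPKM of panH3 over 2 bins. The lowest single bins were in lone Zfp318, with 0.06, 0.11 and 0 RPKM of H3K9me3 against 0.57 and 0.70 RPKM of panH3 (log2 difference -2.29 ± 0.29), in lone Zfp828, with 0.11, 0.07 and 0.09 RPKM against 0.94 and 0.72 RPKM (-2.29 ± 0.26), and at the start of clustered Zfp689, with 0.03, 0.04 and 0.02 RPKM against 0.52 and 0.51 RPKM (-2.25 ± 0.26). Their adjusted p-values in limma were 8.37e-07 for Zfp318, 1.42e-07 for Zfp828 and 2.33e-07 for Zfp689.

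Long genes showed that a single bin does not describe a gene. Zfp462, a large zinc finger gene whose human counterpart is linked to a developmental syndrome, was touched by 8 bins, 6 below panH3, 1 not called and 1 above. The bin above had 0.68, 0.97 and 1.29 RPKM of H3K9me3 against 0.49 and 0.37 RPKM of panH3 (log2 difference 1.00 ± 0.21, adjusted p = 0.000425 in limma). Zfp423, a partner of Ebf factors in neural and fat cell precursors, was touched by 9 bins and all were below, at 0.263 ± 0.037 RPKM of H3K9me3 against 0.643 ± 0.020 RPKM of panH3 as means over the bins.

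By position along the gene, H3K9me3 was lowest at the start site in both classes. The 12 clustered bins within 1 kb of a start site averaged 0.150 ± 0.012 RPKM of H3K9me3 against 0.485 ± 0.029 RPKM of panH3, and 11 were below panH3 and none above. The other clustered start-site bin, in Zfp709 on chromosome 8, had 0.85, 0.80 and 0.75 RPKM against 0.65 and 0.72 RPKM and was not called (adjusted p = 0.404 in limma). The 11 lone start-site bins averaged 0.109 ± 0.021 RPKM against 0.401 ± 0.008 RPKM of panH3, with 7 below and none above. Away from start sites, clustered bins averaged 0.459 ± 0.052 RPKM and lone bins 0.292 ± 0.012 RPKM (SD, n = 3 libraries).

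Each gene was divided at its midpoint. In clustered genes the 3′ part held more H3K9me3 than the 5′ part in every library, but the gap was no larger than its spread once start sites, or bins reaching past the gene, were set aside. Bins of the 3′ part averaged 0.541, 0.441 and 0.411 RPKM in libraries a, b and c, against 0.382, 0.341 and 0.358 RPKM in the 5′ part. Of the 3′ bins, 11 of 45 were above panH3 and 17 below. Of the 5′ bins, 6 of 40 were above and 26 below. The gap was 0.104 ± 0.053 RPKM at 1000 cells (SD, n = 3), 0.116 RPKM at 10000, 0.134 RPKM at 100000 and 0.021 RPKM at 1000000 cells, while panH3 gave gaps of -0.017 and -0.011 RPKM. Without the start-site bins it was 0.034 ± 0.047 RPKM, with only bins wholly inside the gene it was 0.052 ± 0.052 RPKM, and between the last and the first of 3 equal parts of the gene it was 0.230 ± 0.056 RPKM. Lone genes averaged 0.278 ± 0.004 RPKM in the 3′ part and 0.271 ± 0.029 RPKM in the 5′ part, a gap of 0.008 ± 0.033 RPKM that was positive in libraries a and b and negative in c, and -0.009 RPKM without library a.

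**Figure D2:**
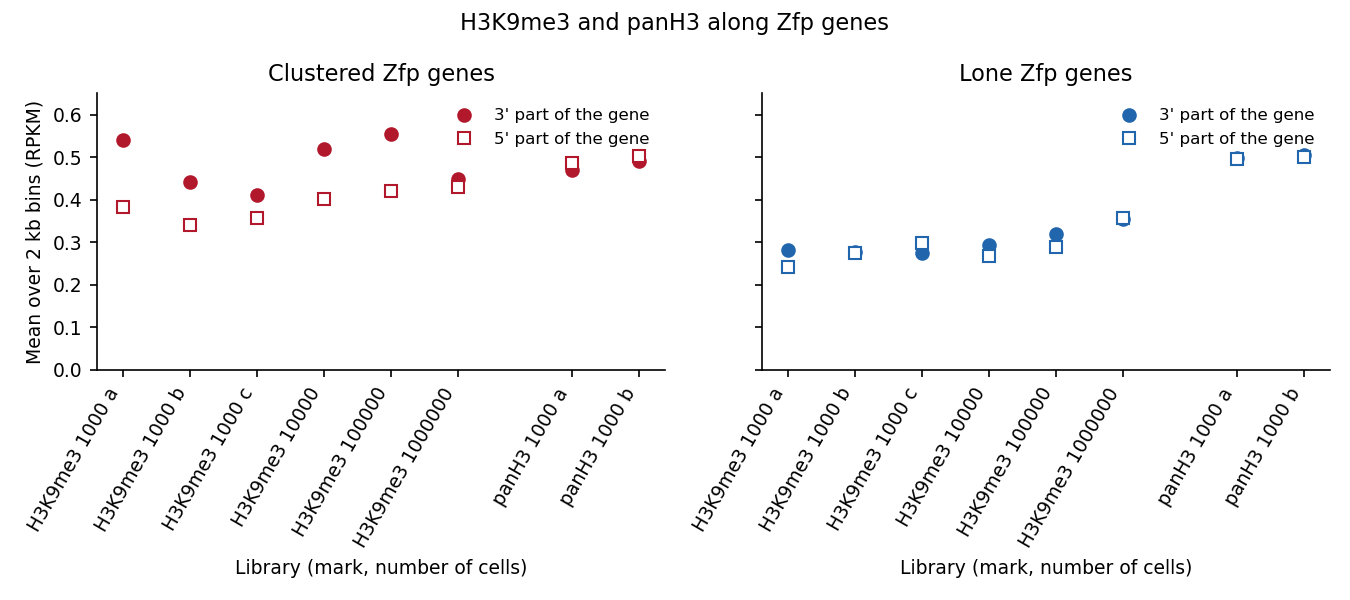
Mean RPKM over the 2 kb bins of the 3′ part (filled) and of the 5′ part (open) in each H3K9me3 and panH3 library, for clustered genes (left) and lone genes (right). In clustered genes the 3′ mean lies above the 5′ mean in all 6 H3K9me3 libraries and below it in both panH3 libraries.

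The chromosomes differed within the clustered class. None of the 31 clustered bins on chromosome 7, which holds the most members, was above panH3, and 19 were below. H3K9me3 there averaged 0.241 ± 0.025 RPKM against 0.477 ± 0.016 RPKM of panH3. On chromosome 17, 9 of 25 clustered bins were above and 11 below, at 0.527 ± 0.069 RPKM against 0.458 ± 0.014 RPKM. On chromosome 13, 5 of 20 were above and 10 below, at 0.455 ± 0.059 RPKM against 0.509 ± 0.008 RPKM. On chromosome 8, 2 of 5 were above and 1 below, at 0.791 ± 0.019 RPKM against 0.674 ± 0.017 RPKM. H3K27me3 at 1000 cells averaged 0.852 RPKM in these 5 bins, against 0.351 RPKM over all clustered bins. In Zfp bins of this chromosome panH3 was also higher than in those of the others. Clustered bins averaged more H3K9me3 than lone bins on each of the 5 chromosomes that held both. On chromosome 7 the lone mean was 0.213 ± 0.007 RPKM, on chromosome 17 it was 0.151 ± 0.069 RPKM over 5 bins, and on chromosome 8 it was 0.276 ± 0.031 RPKM over 24 bins.

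The clustered genes formed 18 runs of at least 3 neighbours, holding 109 genes, and the runs were not alike. On chromosome 17 the run of 5 genes between Zfp760 and Zfp943 had 1.14, 0.872 and 0.740 RPKM of H3K9me3 against 0.462 and 0.445 RPKM of panH3 over 4 bins, of which 2 were above and none below. Its neighbour with Zfp944, Zfp758 and Zfp946 had 0.896, 0.770 and 0.744 RPKM against 0.430 and 0.506 RPKM over 5 bins. In both runs every H3K9me3 library lay above every panH3 library. Elsewhere on the same chromosome, the 8 genes between Zfp871 and Zfp563 had 0.194, 0.194 and 0.20 RPKM against 0.506 and 0.526 RPKM, with 4 of 5 bins below. The 14 genes of chromosome 13 between Zfp712 and Zfp748 held both kinds of bin, with 2 of 14 above, in Zfp759 and Zfp595, and 8 below. The run on chromosome 7 from Zfp84 to Zfp146, also of 14 genes, had none of 9 bins above and 5 below, at 0.276 ± 0.035 RPKM of H3K9me3 against 0.555 ± 0.016 RPKM. The 78 bins that lay between members of a run and touched no gene, here counting runs of 2 genes as well, had 27 calls above and 18 below. They averaged 0.622 ± 0.027 RPKM of H3K9me3 against 0.476 ± 0.006 RPKM of panH3, more than the bins on the clustered genes themselves. Of all bins that touched no gene, 20.2% were above and 11.9% below, at 0.484 ± 0.003 RPKM of H3K9me3. The rise between members was not particular to H3K9me3. H3K27me3 there was 0.646, 0.661 and 0.635 RPKM at 1000, 10000 and 100000 cells. All bins touching no gene had 0.448, 0.456 and 0.453 RPKM. Across the 113 members with a bin, Spearman's rho between H3K9me3 and H3K27me3 of 1000 cells in bins was 0.57, as a description with no test.

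**Figure D3:**
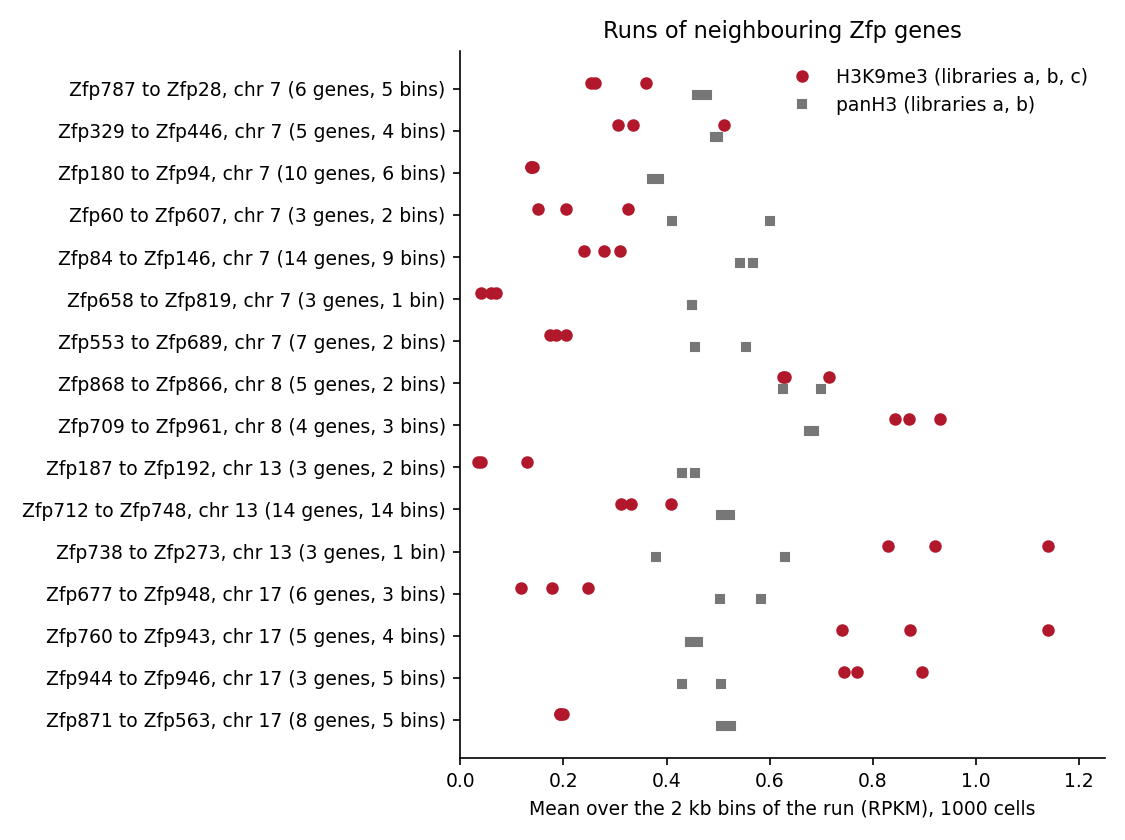
Mean RPKM at 1000 cells over the 2 kb bins of each run of at least 3 neighbouring Zfp genes that held a bin, with 1 circle for each of the 3 H3K9me3 libraries and 1 square for each of the 2 panH3 libraries. Runs on chromosome 17 lie both to the right of panH3 (Zfp760 to Zfp943) and to the left of it (Zfp871 to Zfp563), and all runs drawn for chromosome 7 but the one of Zfp329 to Zfp446, where library a reaches panH3, have every H3K9me3 library to the left.

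RNA was present from most members, and genes with a bin above panH3 were among them. At 1 RPKM or more stood 172 of 210 members (81.9%), against 50.2% of all genes. These are values of 1 library with no replicate, in which fewer expressing cells and less RNA per cell cannot be told apart. The median was 2.21 RPKM for clustered and 3.45 RPKM for lone genes, against 1.02 RPKM for all genes and 3.42 RPKM for the 126 Zfp genes outside the set. The highest was Zfp57, a KRAB zinc finger protein that holds imprints in place by binding methylated imprinting control regions, at 78.4 RPKM. Zfp106 had 40.5 RPKM, Zfp808 had 34.3 RPKM, Zfp423 had 32.8 RPKM and Zfp462 had 25.8 RPKM. The highest clustered genes were Zfp568, which in mouse represses a placental promoter of Igf2, at 26.5 RPKM, Zfp961 at 25.1 RPKM and Zfp934 at 20.7 RPKM. The lone genes Zfp366, Zfp541 and Zfp353, were listed at 0.

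Of the 15 clustered genes with a bin above panH3, 14 had at least 1 RPKM of RNA, with a median of 3.58 RPKM. Of the 33 clustered genes with bins below and none above, 30 did, with a median of 2.45 RPKM. Of the 16 with no called bin, 12 did, with a median of 2.16 RPKM. The other 65 of 129 clustered genes had no tested bin, so their H3K9me3 was not measured. Of these, 46 had at least 1 RPKM of RNA, with a median of 1.91 RPKM, against 79.1% of all clustered genes. Zfp961 had a bin with 1.37, 1.14 and 1.40 RPKM of H3K9me3 against 0.71 and 0.57 RPKM of panH3 and 25.1 RPKM of RNA. Across the 113 members with a bin, Spearman's rho between mean H3K9me3 and RNA was 0.00, as a description across genes that share libraries. Genes high in RNA were thus found at both ends of the H3K9me3 range, Zfp808 and Zfp934 with bins above and Zfp57 with 0.14, 0.10 and 0.07 RPKM against 0.62 and 0.58 RPKM of panH3 in its only bin.

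Start-site H3K4me3, a mark of active promoters, was lower at clustered than at lone genes. Windows were found for 209 members, Zfp389 being the exception, and the window with the highest mean stood for the gene. At 5000 cells the median was 4.58 RPKM for clustered and 8.62 RPKM for lone genes, at 10000 cells 9.85 and 19.7 RPKM, and at 100000 cells 1.90 and 3.37 RPKM. The medians of all genes were 2.15, 3.75 and 1.39 RPKM at these cell numbers, below both classes. A single read was worth 0.539 RPKM at 5000 and 0.938 RPKM at 10000 cells, so low values there rest on a few reads. Zfp276 was highest at 100000 cells with 15.5 RPKM, although its RNA was 0.90 RPKM. Zfp553 had 10.8 RPKM, Zfp161 had 10.4 RPKM, Zfp318, which B cells need to make IgD, had 10.1 RPKM, and Zfp217 had 9.03 RPKM. Zfp781 was listed at 0 in all 3 libraries, and its transcript is placed at 2 loci on chromosome 10. Zfp934 had 0.12 RPKM of H3K4me3 at 100000 cells beside 20.7 RPKM of RNA, and its windows had 0 and 1.88 RPKM at 5000 and 10000 cells. Across genes, rho between H3K4me3 at 100000 cells and RNA was 0.41 over 128 clustered and 0.23 over 81 lone genes. Between H3K4me3 and H3K9me3 in bins it was -0.02 over 64 clustered and -0.55 over 49 lone genes, each a description with no test.

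**Figure D4:**
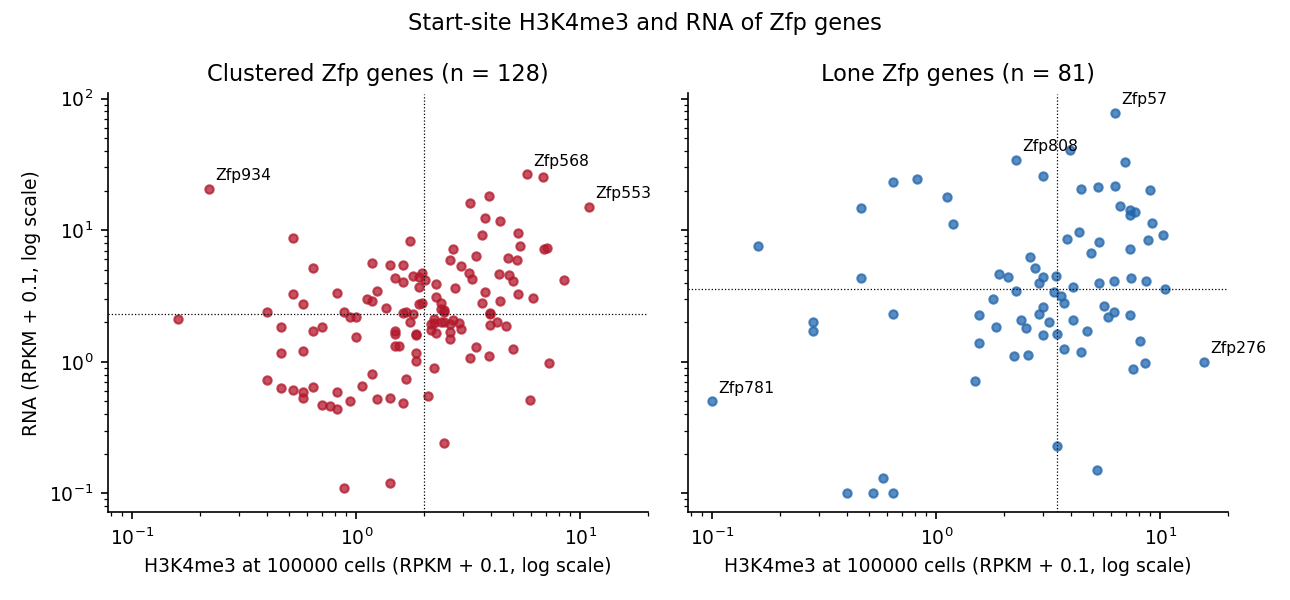
RNA (vertical axis) against start-site H3K4me3 at 100000 cells (horizontal axis), both as RPKM + 0.1 on log scales, with 1 point per gene for clustered (left, n = 128) and lone genes (right, n = 81). Dotted lines are the medians of each panel. Zfp934 (RNA 20.7, H3K4me3 0.12 RPKM) has high RNA beside low H3K4me3, and Zfp276 (RNA 0.90, H3K4me3 15.5 RPKM) has the highest H3K4me3.

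CpG counts before the start site put the classes in the same order as H3K4me3. RefSeq promoters on GRCm38.p6 were matched for 181 members. In the 250 bases before the start, the median was 9 CpG dinucleotides for 115 clustered and 12.5 for 66 lone genes, against 6 for 27025 promoters of all genes. At least 10 CpG dinucleotides were held by 44.3% of clustered, 59.1% of lone and 38.2% of all promoters. Members with at least 10, such as Zfp553 above, had a median of 3.37 RPKM of H3K4me3 at 100000 cells and those with fewer had 1.75 RPKM, with a rho of 0.43 over the 181 genes. For RNA the classes went opposite ways: clustered genes with at least 10 had a median of 2.70 RPKM and those with fewer 1.97 RPKM, and lone genes 3.45 and 4.30 RPKM. Zfp57 had the most RNA of all members with 3 CpG dinucleotides in that window. The letters CCGGAAG, an ETS-type motif searched on both strands, were in 16.0% of member promoters and 7.05% of all promoters. TATAAA was in 5.52% and 13%, and AAGATGG in 2.76% and 4.53%. These are matches of letters and not sites.

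H3K27me3, the mark laid down by Polycomb, was low at the start sites of both classes. Within 1 kb of the start, clustered and lone medians were 0.29 and 0.26 RPKM at 1000 cells, 0.16 and 0.16 RPKM at 10000 cells, and 0.17 and 0.17 RPKM at 100000 cells, against 0.31, 0.28 and 0.28 RPKM for all genes. At 100000 cells 1.9% of members reached 1 RPKM, against 9.5% of all genes. Those members were Zfp579 with 1.06, 2.12 and 1.81 RPKM at 1000, 10000 and 100000 cells, Zfp541 with 0.83, 1.47 and 1.52 RPKM, Zfp703 with 0.63, 0.96 and 1.13 RPKM, and Zfp612 with 0.66, 0.86 and 1.04 RPKM. Zfp579 is clustered on chromosome 7 and Zfp541, Zfp703 and Zfp612 are lone. Zfp541, needed in mouse for male meiosis, was listed at 0 for RNA, and Zfp703, a repressor known as a breast cancer oncogene in human, had 0.05 RPKM of RNA beside 5.12 RPKM of H3K4me3. Zfp423 carried 0.27, 1.22 and 0.77 RPKM of H3K27me3 beside 32.8 RPKM of RNA. Zfp217 was listed at 0 at 100000 cells but had 0.29 and 0.17 RPKM at 1000 and 10000 cells. The medians of all members there were 0.28 and 0.16 RPKM. With 1 library at each cell number these differences have no replicate check, and rho between H3K27me3 at 100000 cells and RNA was -0.34 over the 210 members.

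**Figure D5:**
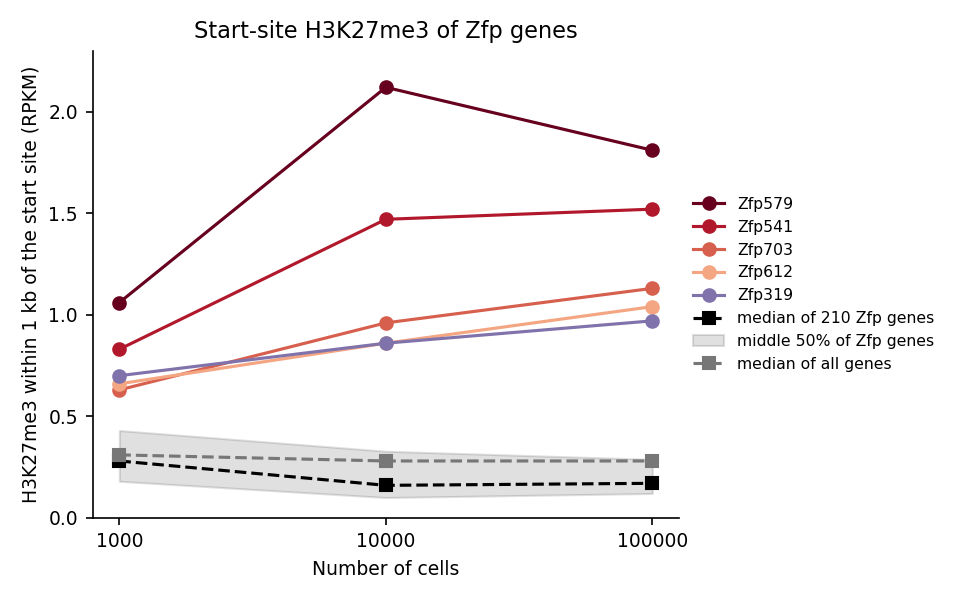
H3K27me3 within 1 kb of the start site (RPKM) at 1000, 10000 and 100000 cells, for the 5 members highest at 100000 cells, the median of the 210 Zfp genes with their interquartile band, and the median of all genes. Each point of a named gene is 1 library, and the medians of the Zfp genes run from 0.28 RPKM at 1000 cells to 0.17 RPKM at 100000 cells.

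Genes listed for the KRAB zinc finger co-repressor pathway were expressed, and those with a bin held little H3K9me3 on average. The list was wider than the co-repressors themselves and took in Dnmt1, Uhrf1, Suv39h1, Suv39h2, Kdm4a, Kdm4b and Kdm4c. Of 23 genes listed, 22 were found by symbol, with a median of 22.8 RPKM of RNA and a range of 5.38 to 122.9 RPKM. Trim28, the KRAB co-repressor, had 118.7 RPKM, Setdb1, the methyltransferase, had 16.4 RPKM, and Cbx1, which encodes an HP1 protein that binds H3K9me3, had 122.9 RPKM. Their bins were above panH3 in 1 of 53 cases, in Atf7ip, which encodes a partner of Setdb1, and below in 43, against 7.19% above and 45.6% below of all bins touching a gene. Trim28, Chd4, Uhrf1, Kdm4a and Suv39h1 had no bin, so H3K9me3 was not measured in them. The 53 bins of the other listed genes averaged 0.167 ± 0.011 RPKM of H3K9me3 against 0.445 ± 0.016 RPKM of panH3. Clustered and lone Zfp bins both averaged above this level, as did all bins touching a gene, at 0.324 ± 0.003 RPKM. The lone mean of 0.275 RPKM lay below that of all bins touching a gene.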

How the data were processed

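The authors deposited RPKM values with 2 decimals, per the file headers, for random 2 kb bins, 1 kb start-site windows and genes on mm9, with 1 column per library and no pooling. Reads were processed with BWA and SAMtools, per the submitters' processing notes; tool versions are not given in the sources used. Depth was estimated from the RPKM steps that 1 read makes. In panH3 and in H3K9me3 at 1000000 cells, 84.0% to 90.7% of all possible hundredths fit a whole read, so a match says little there. In the other ChIP libraries 1.1% to 70.0% do, and at least 99.42% of low values matched a step. In the gene table, most coordinates are multiples of 2 to 16 bp, so gene ends are approximate, and exon positions were not used. The columns of another series, 2 in all, were not used.

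Bins touching a member were assigned to the 3′ or 5′ part of the gene by the bin centre. H3K9me3 (3 libraries) and panH3 (2 libraries) of 1000 cells were compared on log2(RPKM + 0.1) with limma 3.58.1 (trend, robust) in R 4.3.3 over the 93575 bins above 0 in a compared library, with Benjamini-Hochberg adjustment at 0.05. On this scale changes at low bins are understated. Simulated data had the same depth, but an assumed spread between libraries and only a small set of changed bins. There the test recovered 10% of changes of log2 size 1 and 78% of those of size 2, with 1 false call among 93403 bins. In the real data 15.2% of bins were called above and 24.7% below, which makes the adjusted threshold less strict. The simulated rates therefore do not describe the real comparison. All other quantities have 1 library per group or are means over genes and carry no p-value. The labels do not say whether the letters a and b pair libraries. Differences of a and b in H3K9me3 and in panH3 correlated at -0.0095 over bins. That value cannot exclude pairing, since counting noise in bins with few reads could hide it. Named genes were those with the highest and lowest bin differences, H3K27me3, RNA and H3K4me3, together with members singled out after their values were seen (Zfp961, Zfp709, Zfp366, Zfp353 and the members of described runs). Members, classes and lists were chosen with earlier results of these data known. For genes with several rows, the row whose mean over the mark's libraries was highest was used.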

Additional observations from a re-analysis of the deposited data

How the results depend on the processing

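Of 118 values recomputed under other settings, 108 stayed within a set margin and 10 moved further. The margin was the spread between libraries for H3K9me3 levels and gaps, and 1.5 times for counts. For medians over genes it was a 95% interval across the genes of 1 library, which does not measure spread between libraries. Some settings could not move a value. Leaving out genes at 0 dropped no clustered gene, and keeping bins that touch 1 gene dropped no clustered bin. The clustered gap counted as unmoved at 0.052 RPKM against 0.104 RPKM. The tally is therefore a loose check. No count of bins above or below panH3 moved by more than 1.5 times. With each library centred on its median, the median log2 difference of all bins was 0.08, against -0.10 without centring, and clustered bins gave 21 above and 39 below, lone bins 8 and 69. Centring left the median of clustered bins at -0.45 and that of lone bins at -0.90. With the letters as a replicate block, clustered bins gave 17 above and 41 below, and lone bins 5 and 81, against 14.4% above and 24.1% below of all bins. Without panH3 replicate a, 13 clustered bins were above, against 10.4% of all bins, and without replicate b also 13, against 10.5%. As medians over bins, taken in each of the 3 libraries and then averaged, H3K9me3 was 0.290 RPKM in clustered and 0.187 RPKM in lone genes. With each gene counted once, the lone mean was 0.295 RPKM. The gap between 3′ and 5′ parts of clustered genes was 0.034 RPKM without start-site bins, 0.052 RPKM for bins wholly inside the gene, 0.076 to 0.129 RPKM with 1 library left out, and 0.230 RPKM between the outer 2 of 3 equal parts. In lone genes its sign was not stable: it was -0.029 RPKM without start-site bins, -0.031 RPKM for bins wholly inside the gene, -0.011 RPKM for bins touching 1 gene, -0.009 to 0.023 RPKM with 1 library left out and 0.087 RPKM between the outer 2 of 3 equal parts. As a mean over all windows of the gene, median H3K4me3 was 1.54 RPKM for clustered and 2.47 RPKM for lone genes. The cause of these shifts was not tested. Depth limits single bins: the shallowest H3K9me3 library of 1000 cells had a median of 11 reads in clustered and 6 reads in lone bins.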
